A study of Mus musculus with 2 samples.

Results

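Cycling T cells were the cells of healed mouse skin that carried T cell transcripts together with transcripts of cell division. They were selected on measured UMI counts (unique molecular identifiers, 1 per captured transcript). A member passed the cell filter (500 or more UMIs, 300 or more genes, no more than 15% mitochondrial UMIs) and had at least 2 UMIs of Cd3d, Cd3e and Cd3g together, at least 3 UMIs of Mki67 and Top2a together, fewer than 5 UMIs of Lyz2, and fewer than 20 of Col1a1 and Col1a2. In all, 512 of 24649 filtered cells met the rule, 324 of 11443 in WT_LW and 188 of 13206 in TLR9agonist_LW.

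The cells came from dorsal skin of wild-type male C57BL/6J mice with a circular wound 1.8 cm across, taken 2 days after the scab came off. By the labels, the WT_LW wound received PBS on days 0, 3 and 6 (the study's text also names a control oligonucleotide for this group), and in TLR9agonist_LW it received ODN2395, a CpG oligonucleotide that activates Toll-like receptor 9, on the same days. Each group was 1 library of cells pooled from several mice, so no test between the groups was possible, and the treatment cannot be told apart from the library. All intervals given are 95% intervals that cover counting error only.

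A T cell that meets its antigen or growth cytokines leaves the resting state, copies its DNA in S phase and divides in M phase. Genes for DNA copying are switched on at the start of S phase, largely by E2F factors, and genes for chromosome separation peak later, in G2 and M, under complexes that bind CHR and CCAAT elements in their promoters. Skin holds several T cell kinds that can divide in place: CD4 helper cells, regulatory T cells marked by Foxp3, CD8 killer cells, and IL-17-producing gamma delta T cells, of which many carry the scavenger receptor gene Cd163l1.

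The genes that chose these cells belong to the late group, and their promoters are shown because they carry its elements. Top2a encodes the topoisomerase that untangles sister chromosomes, Mki67 the protein that coats mitotic chromosomes, and Hmgb2 a chromatin protein and the cycle gene with the most member UMIs among those named here. Pcna, the sliding clamp of the replication fork, is shown as an S phase gene for contrast. The 250 bases before each start site are given 5′ to 3′ on the gene's own strand, from RefSeq (GRCm38.p6), with every CHR (TTTGAA or TTCGAA) and CCAAT match in capitals, read on both strands, so that TTCAAA and ATTGG are the reverse-strand forms.
Top2a (chr11:99024190-99024439, minus strand): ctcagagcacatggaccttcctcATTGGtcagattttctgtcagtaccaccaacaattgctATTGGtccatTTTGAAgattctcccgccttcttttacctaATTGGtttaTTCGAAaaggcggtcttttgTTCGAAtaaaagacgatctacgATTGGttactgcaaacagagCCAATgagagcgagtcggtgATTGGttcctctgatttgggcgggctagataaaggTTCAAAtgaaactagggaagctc
Mki67 (chr7:135716380-135716629, minus strand): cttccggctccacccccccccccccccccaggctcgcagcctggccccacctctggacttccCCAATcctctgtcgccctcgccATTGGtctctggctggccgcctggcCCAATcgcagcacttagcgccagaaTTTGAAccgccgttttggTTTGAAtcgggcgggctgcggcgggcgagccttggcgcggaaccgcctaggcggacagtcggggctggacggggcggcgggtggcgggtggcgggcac
Hmgb2 (chr8:57511593-57511842, plus strand): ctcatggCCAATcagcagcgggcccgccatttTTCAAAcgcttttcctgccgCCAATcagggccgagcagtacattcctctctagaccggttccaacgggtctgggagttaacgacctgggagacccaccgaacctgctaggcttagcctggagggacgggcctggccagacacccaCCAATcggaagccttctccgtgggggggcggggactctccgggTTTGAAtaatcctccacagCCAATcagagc
Pcna (chr2:132253181-132253430, minus strand): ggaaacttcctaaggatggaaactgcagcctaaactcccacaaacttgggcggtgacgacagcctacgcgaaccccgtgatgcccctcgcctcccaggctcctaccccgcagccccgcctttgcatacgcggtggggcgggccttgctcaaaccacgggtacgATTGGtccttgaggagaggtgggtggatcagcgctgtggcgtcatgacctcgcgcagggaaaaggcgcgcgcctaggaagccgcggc

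The Top2a window held 4 CHR and 6 CCAAT matches, with the nearest CHR 23 bases before the start. Mki67 held 2 CHR matches, 116 and 98 bases before the start, and 3 CCAAT matches, and Hmgb2 held 2 and 4. Pcna held 1 CCAAT match, 87 bases before its start, and no CHR letters. Promoters not printed varied: the G2 and M gene Tmpo held no CHR match and 2 CCAAT matches. The S phase genes Slbp and Dut held 3 and 0 CCAAT matches and no CHR match. Of 57 promoters matched to 51 of 59 genes (a G2 and M list with Mki67 and Top2a added), 25 (43.9%) held a CHR match, against 7 of 42 (16.7%) promoters of 36 of 48 S phase genes and 17.1% of all 32851 promoters in the table. CCAAT stood in 77.2% of the G2 and M promoters, 61.9% of the S phase promoters and 33.9% of all promoters. A perfect E2F element (TTTGGCGC, TTTCCCGC, TTTCGCGC or TTTGCCGC) stood in 23.8% of the S phase promoters, 5.26% of the G2 and M promoters and 1.86% of all. The Pcna window held no such element. These matches describe letters in a window, not binding, and matches of different motifs were counted separately where they overlapped.

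Members were large in RNA content. Their median was 11064 UMIs and 3123 genes in WT_LW and 10884 UMIs and 3022 genes in TLR9agonist_LW, whereas T cells with no Mki67 or Top2a UMI (2488 and 3011 cells, called other T cells here) had medians of 4120.5 and 4538 UMIs. In sum the members held 4286416 and 2465501 UMIs, and levels are given as CPM, UMIs scaled by these sums to a common total. CPM is thus a share of RNA, and in these deeper cells a lower CPM need not mean fewer UMIs per cell. The mitochondrial share was similar, with medians of 2.48% and 1.99%. Because a deeper cell shows more genes, shares of cells were also computed after every cell was thinned to 1500 UMIs. One barcode was shared between the members of the 2 libraries, out of 47 shared among all barcodes. Predicted doublets made up 15 of 324 and 10 of 188 members.

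The T cell label held against markers that the rule had not used. Ptprc, which encodes CD45, was seen in 96.3% and 94.7% of members, at 644 and 463 CPM against 903 and 477 CPM in other T cells. Thy1, a surface marker of mouse T cells, was seen in 92.9% and 82.4% of members, at 446 and 226 CPM against 467 and 303 CPM. Cd28, the co-stimulatory receptor, was seen in 84.0% and 79.8%, at 337 and 269 CPM against 490 and 209 CPM. The 5 natural killer cell markers summed to 7.47 and 2.03 CPM, against 15.9 and 8.07 CPM in other T cells. Of these, Ncr1 and Klra8 had 0 UMIs in both libraries, which allows up to 0.70 and 1.22 CPM each. Of the B cell genes, Ms4a1 also had 0 UMIs, and Cd79a had 2 UMIs in WT_LW and 0 in TLR9agonist_LW.

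Transcripts of other skin cells were present, and more so in TLR9agonist_LW for epidermal and neutrophil genes. The 6 keratinocyte markers summed to 2202 and 3494 CPM in members (2542 and 4139 CPM in other T cells), and the 4 neutrophil markers to 160 and 1248 CPM. S100a8, a neutrophil and wound epidermis gene, had a UMI in 16.0% of WT_LW members and 98.4% of TLR9agonist_LW members. Members with at least 5 UMIs of Krt5 and Krt14 numbered 20 in WT_LW and 51 in TLR9agonist_LW, and the summed fibroblast markers stood at 928 and 1556 CPM. The 8 macrophage and dendritic cell markers ran the other way, at 1012 and 658 CPM. The 4 mast cell markers were at 221 and 268 CPM. What part these transcripts play in the differences between the libraries was not tested, and they were spread over most members, with more than 1 collagen UMI in 96.6% and 98.9%. The main counts were repeated without the members that carried the most keratinocyte, myeloid or mast cell transcripts, which left 297 and 134.

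The cells nearest the rule's limits showed where it cuts. Exactly 3 UMIs of Mki67 and Top2a were found in 38 and 21 members, whose G2 and M genes summed to 2978 and 2431 CPM. The 154 and 91 T cells with exactly 2 had 2029 and 2183 CPM. Members with a Cd3 sum of 2 numbered 14 and 7, with median depths of 4459.5 and 6102 UMIs. The dividing cells just outside, with a Cd3 sum of 1, numbered 42 and 26, with median depths of 17606 and 22638 UMIs. Of all 848 and 646 filtered cells with at least 3 Mki67 and Top2a UMIs, members were 38.2% and 29.1%. The Lyz2 limit removed 59 and 17 dividing Cd3 cells and the collagen limit 33 and 54 more.

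Dividing cells were a smaller share of T cells in TLR9agonist_LW than in WT_LW. Members were 324 of 3521 T cells in WT_LW, or 9.20% (8.27 to 10.2), and 188 of 3730 in TLR9agonist_LW, or 5.04% (4.36 to 5.79). The log2 ratio of the shares was -0.87 (-1.14 to -0.60). At equal depth the order was the same, with at least 1 Mki67 or Top2a UMI in 15.01% (13.8 to 16.2) and 8.74% (7.85 to 9.70) of thinned T cells. Without the T cells that carried keratinocyte, myeloid or mast cell genes the shares were 8.81% and 4.37%. Thinned fibroblast-rule cells (at least 20 collagen UMIs, no Cd3) stood in the same order, at 7.75% and 3.86%. T cells themselves were 30.8% and 28.2% of filtered cells.

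The libraries also differed in their mix of T cells, as the lineage genes show. What part this mix plays in the lower dividing share was not tested. Each T cell was placed in a class by which of Cd4, Foxp3, Cd8a, Cd8b1 and Cd163l1 had at least 1 UMI. Cells with Cd4 only were 32.5% of T cells in WT_LW and 18.6% in TLR9agonist_LW, and cells with Cd163l1 only were 14.4% and 42.4%. Within the Cd4-only class the dividing share was 12.4% (142 of 1146) in WT_LW and 12.4% (86 of 693) in TLR9agonist_LW, a log2 ratio of 0.00 (-0.40 to 0.40). Within the Cd163l1-only class it was 5.13% (26 of 507) and 1.58% (25 of 1582), a log2 ratio of -1.70 (-2.55 to -0.85). The number of dividing Cd163l1-only cells was thus nearly the same in both libraries, while the class around them was larger in TLR9agonist_LW.

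Among the other classes the dividing share lay above or below that of the Cd4-only class. Cells with genes of more than 1 lineage stood at 17.6% (43 of 244, 13.1 to 23.0) in WT_LW and 9.82% (16 of 163, 5.72 to 15.5) in TLR9agonist_LW. Cells with Cd4 and Foxp3 had a dividing share of 15.1% (24 of 159, 9.92 to 21.6) and 20.5% (15 of 73, 11.98 to 31.6), with intervals that overlapped those of the Cd4-only class. Cells with Cd8a or Cd8b1 only stood at 5.77% (27 of 468) and 5.14% (11 of 214), a log2 ratio of -0.17 (-1.33 to 0.89). Foxp3 without Cd4 gave 11.5% (16 of 139) and 3.33% (3 of 90), and cells with none of the 5 genes 5.36% (46 of 858) and 3.50% (32 of 915). With the class rates of TLR9agonist_LW applied to the class sizes of WT_LW the dividing share would be 7.54%, and with the rates of WT_LW applied to the sizes of TLR9agonist_LW it would be 7.47%, both between the 2 measured shares. The classes depend on depth, because dividing cells are deeper and more often show any given gene.

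**Figure D1:**
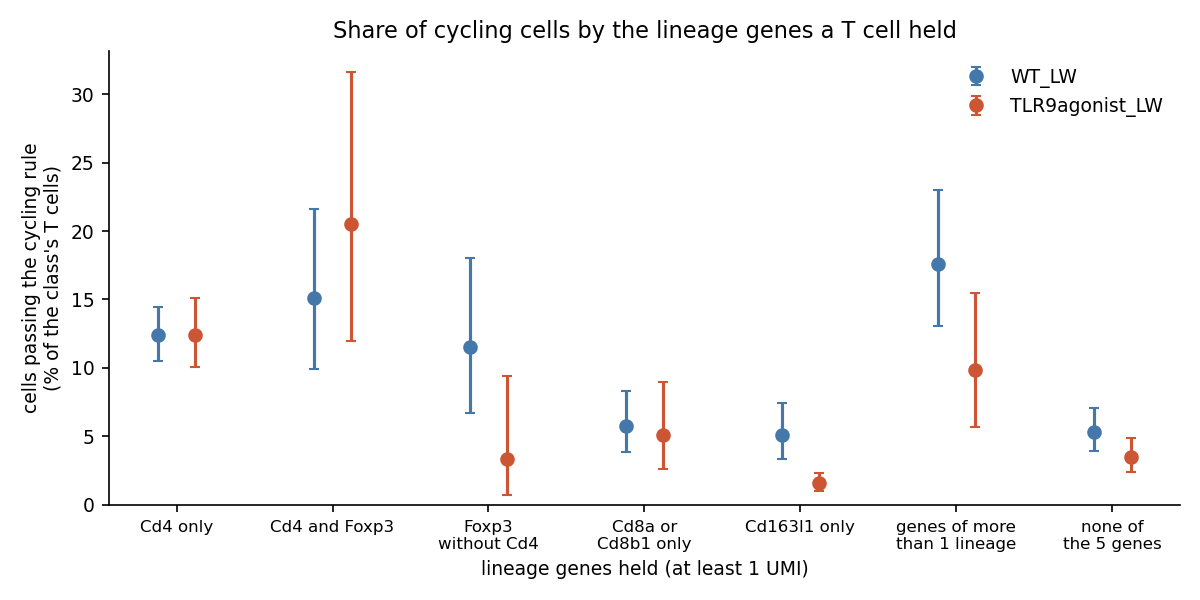
Dividing cells as a percentage of T cells (y axis, %) in each class of lineage genes (x axis) for WT_LW and TLR9agonist_LW, with points for the share and bars for exact 95% binomial intervals. The points of the Cd4-only class lie together at 12.4% in both libraries, whereas those of the Cd163l1-only class stand at 5.13% and 1.58%.

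At equal depth the dividing share was lower in TLR9agonist_LW for Cd163l1, Cd4 and Cd8a holders and differed little for Foxp3 holders. Among thinned T cells with a Cd163l1 UMI, 11.5% in WT_LW and 5.21% in TLR9agonist_LW had a Mki67 or Top2a UMI. Among thinned Cd4 holders the shares were 15.9% (13.2 to 18.9) and 11.2% (8.14 to 14.8), with overlapping intervals. The unthinned Cd4-only class had shown no such gap. Among thinned Foxp3 holders the shares were 13.9% (27 of 194, 9.38 to 19.6) and 15.4% (16 of 104, 9.06 to 23.8). Thinned Cd8a holders stood at 13.5% and 5.75%, the latter from 5 of 87 cells.

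Cd4, the co-receptor of helper and regulatory T cells, was the lineage gene most members held. A Cd4 UMI was found in 62.3% (202 of 324) of WT_LW members and 61.7% (116 of 188) of TLR9agonist_LW members, against 38.3% and 20.6% of other T cells. After thinning, 16.7% and 13.8% of members and 18.3% and 9.23% of other T cells held it. Fibroblast-rule cells, which should lack it, stood at 0.72% and 0.17%. In 69 and 54 members the call rested on exactly 1 Cd4 UMI. Over all member UMIs Cd4 stood at 128 CPM (117 to 139) and 86.8 CPM (75.6 to 99.2).

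Cd163l1 was held by fewer members than other T cells, most clearly in TLR9agonist_LW. It had a UMI in 15.4% and 19.1% of members and in 19.6% and 48.5% of other T cells. Fibroblast-rule cells, also unthinned, held it in 3.77% and 4.39%. In 23 and 14 members the call rested on exactly 1 Cd163l1 UMI. What part RNA from other cells plays in these calls was not tested. After thinning the shares were 6.50% and 5.32% of members against 15.1% and 32.5% of other T cells, with 0.98% and 0.61% of fibroblast-rule cells. The order of the libraries among members thus depended on depth, and their intervals overlapped at both depths. In sum its level was 51.6 and 46.6 CPM in members and 205 and 335 CPM in other T cells. The level in members thus differed little between the libraries, with a log2 ratio of -0.14, while in other T cells it was 0.71.

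Foxp3, the factor that defines regulatory T cells, was held by 15.4% and 10.6% of members. At equal depth the shares were 4.95% and 5.85%, so the order of the libraries depended on depth. Other T cells stood at 5.51% and 2.52% after thinning. The CD8 genes were rarer among TLR9agonist_LW members. Cd8a was held by 9.88% and 3.72% of members, and 94.6% of its 37 UMIs in TLR9agonist_LW came from 5 cells. Cd8b1 was held by 15.7% and 8.51%, and after thinning by 7.43% and 1.60%. In other T cells the thinned Cd8b1 shares were 9.07% and 3.22%.

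Genes of more than 1 lineage were found in 43 WT_LW and 16 TLR9agonist_LW members. Cd4 or Foxp3 occurred with a CD8 gene in 22 and 6 members, and with Cd163l1 in 20 and 11. Of these mixed members, 1 and 2 were predicted doublets. None of the 5 genes was seen in 46 and 32 members, whose median depths of 6564.5 and 8123.5 UMIs were below those of the Cd4-only members (11426 and 11587).

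**Figure D2:**
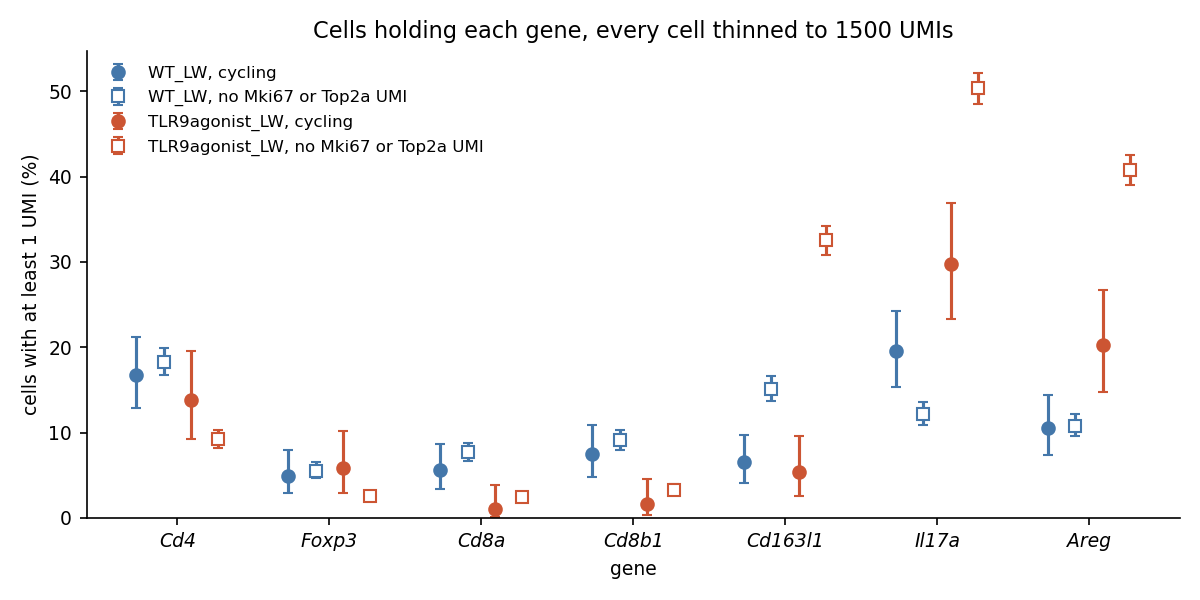
Share of cells with at least 1 UMI (y axis, %) of 5 lineage genes, Il17a and Areg (x axis) in cycling T cells (filled circles) and other T cells (open squares) of both libraries, every cell thinned to 1500 UMIs, with exact 95% binomial intervals as bars. Cd163l1 stands at 5.32% in dividing and 32.5% in other T cells of TLR9agonist_LW.

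Compared with other T cells, members carried more transcripts of most S, G2 and M genes, as their choice on Mki67 and Top2a implies, and these values are a description of the selected cells. Of 11968 genes counted, 610 (5.1%) were at least 2-fold higher in members in both libraries and 489 (4.09%) at least 2-fold lower. The S phase list had 42 of 48 genes higher and the G2 and M list 52 of 57. Summed S phase genes stood at 4795 and 3961 CPM in members against 1019 and 737 CPM in other T cells, and G2 and M genes at 9881 and 9409 CPM against 1741 and 1966 CPM.

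Hmgb2, the chromatin protein shown above, had the most member UMIs among the named cycle genes, at 2871 and 3428 CPM against 495 and 734 CPM. H2afz, a histone variant gene, stood at 2568 and 2299 CPM against 699 and 917 CPM, and Tubb5, a tubulin of the spindle, at 1303 and 1414 CPM against 219 and 166 CPM. The replication clamp Pcna was at 291 and 191 CPM against 88.3 and 51.7 CPM. Dut, which keeps uracil out of DNA, was at 459 and 336 CPM against 61.8 and 39.0 CPM.

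Genes outside the lists included the sharpest contrasts. Esco2, which locks sister chromosomes together in S phase, stood at 51.8 and 67.3 CPM against 0.52 and 0.51 CPM. Ska1, a part of the spindle attachment at kinetochores, was at 47.6 and 47.5 CPM against 0.69 and 0.57 CPM. Replication-dependent histone genes were 7 of the 10 highest, such as Hist1h2ae at 569 and 1111 CPM against 9.41 and 10.6 CPM. Histone genes have near-identical copies and mostly lack the poly(A) tails that this chemistry captures, so their levels are uncertain. DNA repair genes had 8 of 12 higher, among them Brca1 at 45.3 and 62.9 CPM against 2.76 and 2.35 CPM.

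Entry genes moved less than the later ones. Of 7 G1 cyclins and kinases, Ccne1, Cdk4 and Cdk2 were at least 2-fold higher, with Cdk4 at 133 and 88.0 CPM against 53.5 and 34.8 CPM. Ccnd2, the cyclin that responds to growth signals in lymphocytes, stood at 178 and 77.9 CPM in members and 337 and 133 CPM in other T cells. Among 10 inhibitors Cdkn2a and Cdkn2c were higher and Btg1, an anti-proliferative gene of resting lymphocytes, lower, at 785 and 1405 CPM against 1879 and 3135 CPM.

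The contrast in CPM was mixed among immune genes. Ccl5, a chemokine of memory and killer T cells, stood at 147 and 75.04 CPM against 1264 and 612 CPM, log2 ratios of -3.11 and -3.03. Il7r, the receptor for the survival cytokine IL-7, was at 368 and 462 CPM against 767 and 859 CPM. Of 16 gamma delta T17 identity genes, 5 were at least 2-fold lower in both libraries (Sox13, Cd163l1, Blk, Zbtb16 and 5830411N06Rik) and 0 higher. Of 14 T cell activation genes, Nr4a2 and Nr4a3, early genes after receptor signalling, were lower and 0 were higher. Tnfaip3, a brake on NF-kB, was at 416 and 513 CPM against 976 and 1079 CPM. Ctla4, the inhibitory receptor of regulatory and activated T cells, was higher in members of both libraries, at 393 and 273 CPM against 218 and 136 CPM.

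Between the libraries, most genes of the members differed by less than 2-fold. Of 8440 genes with at least 50 member UMIs, 264 (3.13%) were at least 2-fold higher in TLR9agonist_LW and 258 (3.06%) at least 2-fold lower. The median log2 ratio was -0.10, and relative to it 326 were higher and 190 lower. Counting intervals lay above 0 for 1181 genes and below 0 for 1940, and the spread between mice is unknown. Without the members that carried keratinocyte, myeloid or mast cell genes, 175 genes were at least 2-fold higher. The limit of 50 member UMIs was applied again to these fewer cells, so the 175 are not out of the 8440 genes.

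The division genes themselves stood slightly lower in TLR9agonist_LW. The S phase list had 0 of 48 genes at least 2-fold higher and 2 lower (Ung and Dscc1), with a median log2 ratio of -0.28. The G2 and M list had 0 of 56 higher and 2 lower (Ttk and Kif20a), with a median of -0.24. Ccnd2 was the only G1 gene of 7 past 2-fold, at a log2 ratio of -1.19 in members and 133 against 337 CPM in other T cells. Hist1h1b, a linker histone gene, was at 359 and 761 CPM.

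Fewer members of TLR9agonist_LW had S phase genes in the majority, while the typical member differed little. On thinned counts, the S phase genes made at least 0.5 of all S, G2 and M list UMIs (Mki67 and Top2a left out) in 29.5% of WT_LW members (95 of 322, 24.6 to 34.8) and 16.6% of TLR9agonist_LW members (31 of 187, 11.6 to 22.7). The log2 ratio of these shares was -0.83 (-1.47 to -0.23). The S share is a range and not a cell type, and 98 and 49 members lay within 0.1 of the threshold. The medians were 0.34 and 0.29, with overlapping quartile ranges of 0.20 to 0.52 and 0.18 to 0.45. Mean S phase UMIs per thinned member were 7.33 and 6.48, and mean G2 and M UMIs 15.1 and 14.6, against 1.60 and 1.12, and 2.70 and 3.11, in other T cells. Within the Cd4-only class the shares were 30.0% (42 of 140) and 12.8% (11 of 86), and within the Cd163l1-only class 34.6% (9 of 26) and 29.2% (7 of 24). Free RNA also enters these counts, and its part was not tested.

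**Figure D3:**
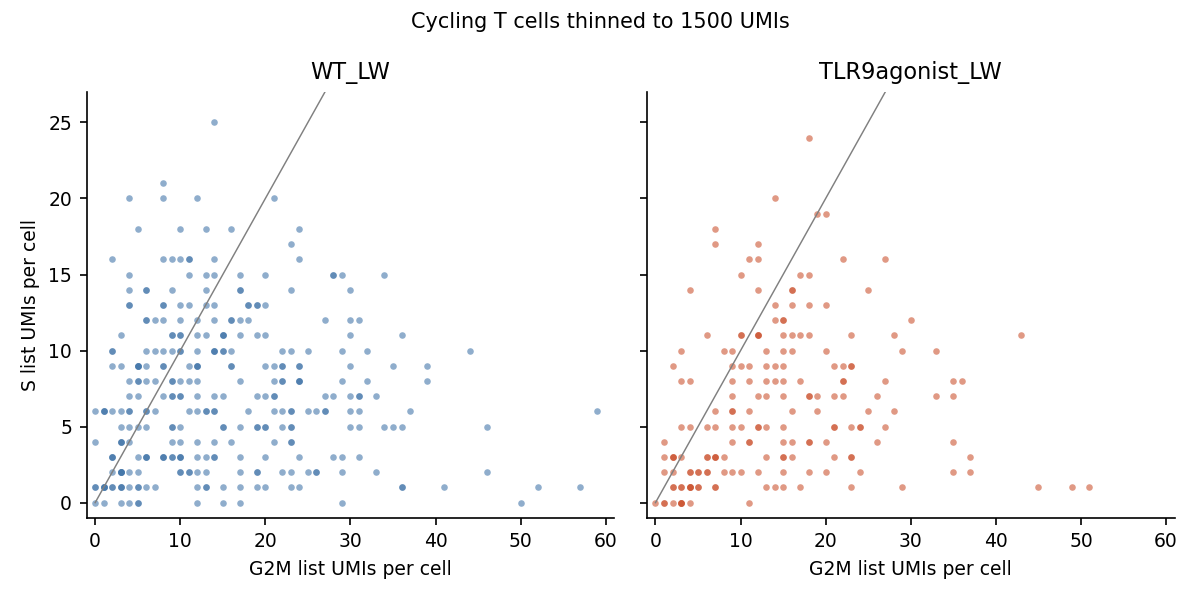
UMIs of the G2 and M list (x axis) and of the S phase list (y axis) per cycling T cell thinned to 1500 UMIs, 1 point per cell, with WT_LW and TLR9agonist_LW in separate panels and a line where both sums are equal. Of the members with any UMI of these lists, 29.5% in WT_LW and 16.6% in TLR9agonist_LW lie on or above the line.

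Il17a and Areg showed a smaller gap between the libraries in members than in other T cells. Il17a, the cytokine that drives neutrophil recruitment and epidermal defence, stood at 306 CPM (290 to 323) in WT_LW members and 872 CPM (836 to 910) in TLR9agonist_LW members, a log2 ratio of 1.51. Other T cells stood at 286 and 4942 CPM, a log2 ratio of 4.11. Areg, an EGF receptor ligand of tissue repair, was at 196 and 526 CPM in members, a log2 ratio of 1.42, and at 315 and 3320 CPM in other T cells, a log2 ratio of 3.40. At equal depth Il17a was held by 19.5% and 29.8% of members and 12.2% and 50.3% of other T cells, and Areg by 10.5% and 20.2% against 10.8% and 40.8%. Without predicted doublets the Il17a ratio in members was 1.26. Fibroblast-rule cells held Il17a at 2.89 and 25.8 CPM and Areg at 14.0 and 94.9 CPM.

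The Cd163l1-only class held the highest Il17a levels, and in CPM its dividing cells stood below its other cells in both libraries. In the Cd163l1-only class Il17a stood at 711 CPM in dividing and 1183 CPM in other cells of WT_LW, and at 2774 and 9114 CPM in TLR9agonist_LW. The log2 ratio of dividing to other cells was -0.73 (-0.99 to -0.49) in WT_LW and -1.72 (-1.81 to -1.62) in TLR9agonist_LW. Without predicted doublets these were -0.73 and -1.79. Few cells carried the dividing value, since 5 of the 26 and 25 cells held 81.0% and 68.7% of its UMIs. What part RNA from other cells plays in placing cells in this class was not tested. Areg in this class gave log2 ratios of -0.47 and -1.31. Per cell the WT_LW order was the reverse for both genes. There 26 dividing cells held 142 Il17a and 168 Areg UMIs, and 394 other cells held 1907 and 1880.

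In the Cd4-only class the gap in Il17a and Areg between the libraries was smaller in dividing than in other cells. Il17a in dividing Cd4-only cells was at 373 and 587 CPM, a log2 ratio between libraries of 0.65 (0.50 to 0.81). In other Cd4-only cells it was at 207 and 751 CPM, a log2 ratio of 1.86. Dividing to other Cd4-only cells gave a log2 ratio of 0.85 for Il17a in WT_LW and -0.36 in TLR9agonist_LW. Helper cells can also make this cytokine. Areg in dividing Cd4-only cells was at 162 and 124 CPM, and in other Cd4-only cells at 112 and 491 CPM. Icos, a co-stimulator of helper cells, was at 592 and 852 CPM in dividing and 717 and 1019 CPM in other Cd4-only cells. Il7r was lower in CPM in dividing cells of both libraries, at 358 and 443 CPM against 816 and 912 CPM. Per cell it was not lower. In WT_LW 142 dividing cells held 719 Il7r UMIs and 730 other cells 2894. In TLR9agonist_LW 86 dividing cells held 485 and 492 other cells 2393.

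Il2ra, the high-affinity subunit of the IL-2 receptor, had opposite signs in the whole classes. It was at 243 and 180 CPM in members, a log2 ratio of -0.43, and at 186 and 511 CPM in other T cells, a log2 ratio of 1.46. Within the Cd163l1-only class the log2 ratio was 1.61 (1.03 to 2.22) in dividing cells and 1.33 in other cells. Within the Cd4-only class it was -0.63 (-0.98 to -0.29) in dividing cells and 0.26 in other cells. Dividing cells with Cd4 and Foxp3 also had a negative ratio, -0.80 (-1.13 to -0.49).

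**Figure D4:**
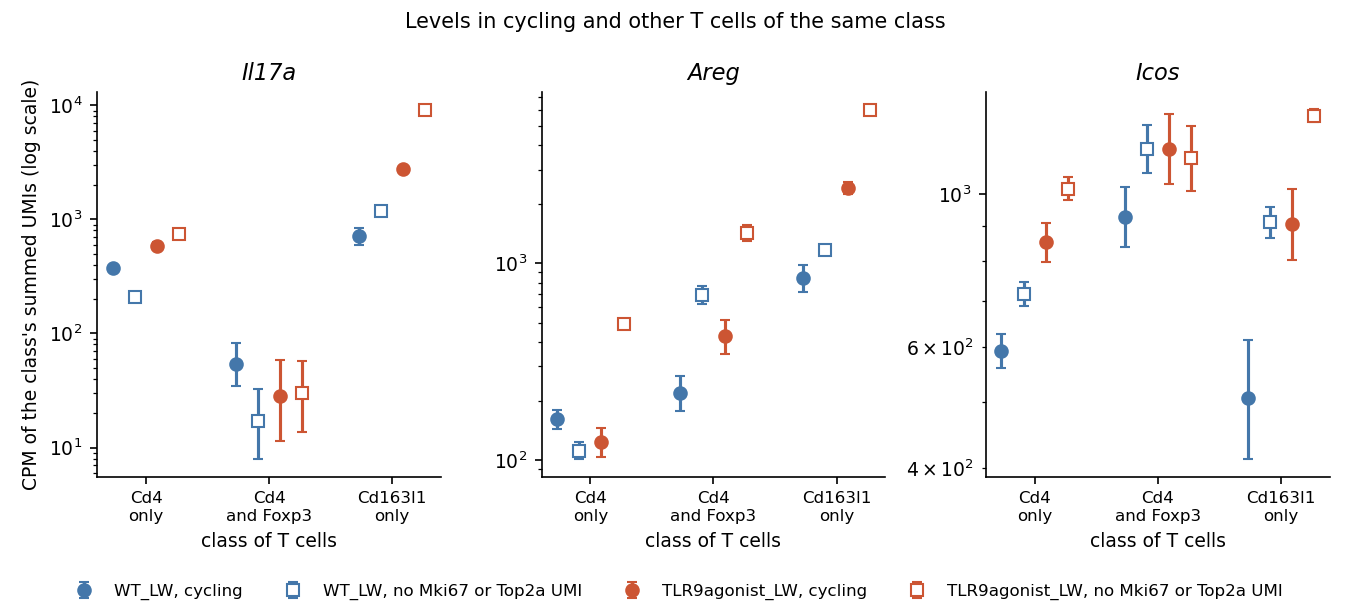
Summed levels (y axis, CPM, log scale, a separate scale per gene) of Il17a, Areg and Icos in cycling T cells (filled circles) and other T cells (open squares) of 3 lineage classes (x axis) in both libraries, with exact 95% Poisson intervals as bars. In the Cd163l1-only class Il17a of TLR9agonist_LW stands at 2774 CPM in dividing and 9114 CPM in other cells.

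Cytotoxic genes had the lowest median of the functional lists between the libraries. Of 11 counted, 6 were at least 2-fold lower in TLR9agonist_LW members and 2 higher, with a median log2 ratio of -1.23, and other T cells had a median of -1.45. Gzma, a granzyme of killer cells, was at 257 and 17.0 CPM, but its UMIs sat in 20 of 324 and 5 of 188 cells. Xcl1, a chemokine for cross-presenting dendritic cells, was at 112 and 9.33 CPM, and Nkg7, a cytotoxic granule gene, at 239 and 81.5 CPM. Nkg7 was also lower within classes, at 1474 and 518 CPM in dividing cells with Cd8a or Cd8b1 only and at 161 and 87.6 CPM in dividing Cd4-only cells.

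Gzmb and Ccl4 were the higher ones, and in TLR9agonist_LW most of their UMIs came from 5 cells. Gzmb was at 175 and 370 CPM with 24.7% and 27.7% of members holding it and 71.5% of its TLR9agonist_LW UMIs in 5 cells, and without predicted doublets its log2 ratio went from 1.08 to -0.08. Ccl4 was at 113 and 341 CPM, and 5 cells held 93.2% of its UMIs in TLR9agonist_LW. Within the class with Cd8a or Cd8b1 only, Gzmb was at 1043 and 919 CPM in dividing and 408 and 524 CPM in other cells.

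Regulatory T cell and helper genes differed less. Of 10 regulatory T cell genes counted, Areg was 2-fold higher and 0 lower, and of 10 CD4 helper genes 0 passed 2-fold in either direction. Ctla4 in dividing cells with Cd4 and Foxp3 was at 1078 and 989 CPM. Areg in the same class was at 220 and 426 CPM in dividing and 692 and 1435 CPM in other cells. Pdcd1, which encodes the checkpoint receptor PD-1, was at 41.1 and 84.8 CPM in members and 99.8 and 338 CPM in other T cells. Cxcr6, a receptor of tissue-resident T cells, was at 289 and 527 CPM in members and 464 and 1130 CPM in other T cells.

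Metabolic and signalling lists moved modestly. Of 15 glycolysis genes 4 were at least 2-fold higher in TLR9agonist_LW members (Slc2a1, Hk2, Pfkl and Slc16a3) and 0 lower, with a median log2 ratio of 0.47 against 0.78 in other T cells. Of 9 Toll-like receptor and NF-kB genes, Relb was higher and 0 lower. None of 6 type I interferon genes passed 2-fold, with a median of -0.25. Of 12 genes known to respond to tissue dissociation, Hspa1a and Hspa1b were at least 2-fold higher, Fosb was lower, and the median log2 ratio was -0.34. The heat shock genes Hspa1a and Hspa1b were at 676 and 2850 CPM and at 666 and 2781 CPM, and in other T cells Hspa1a was at 1060 and 3240 CPM.

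**Figure D5:**
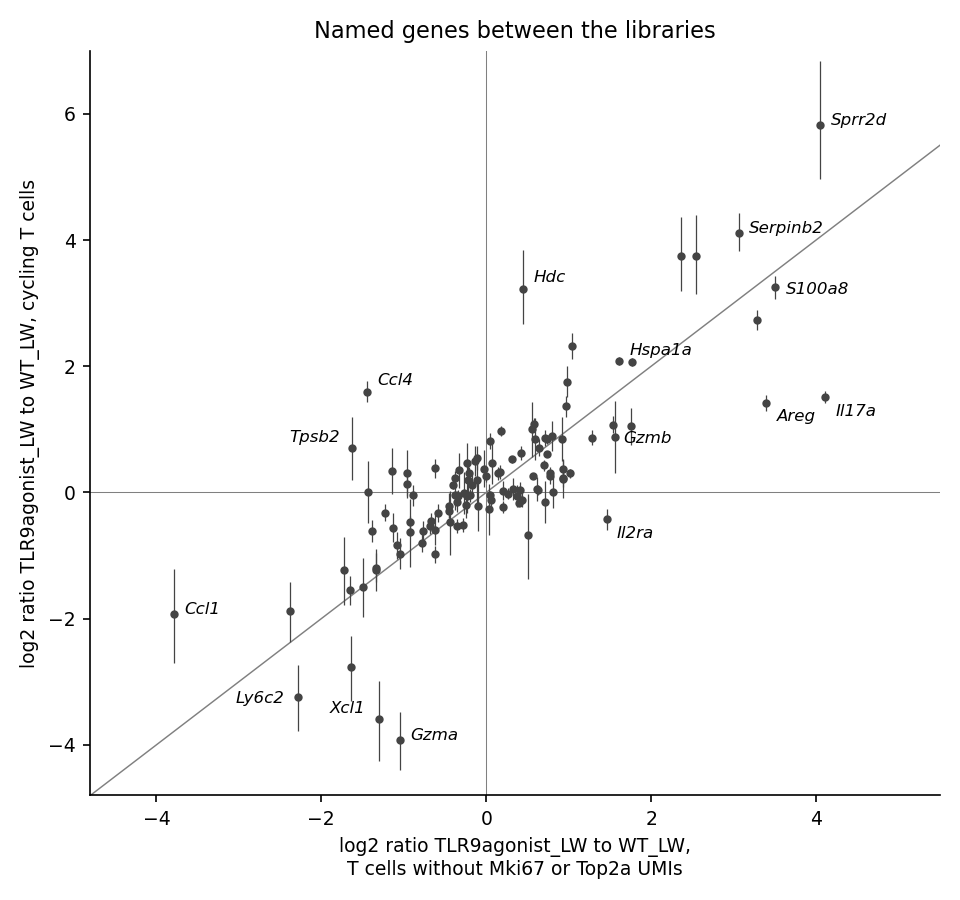
Log2 ratio of TLR9agonist_LW to WT_LW in other T cells (x axis) and in cycling T cells (y axis) for 117 named genes with at least 100 member UMIs, 1 point per gene, with exact 95% counting intervals as bars on the y axis and a line of equal ratios. Il17a (4.11 and 1.51) and Areg (3.40 and 1.42) lie below the line, Il2ra lies below 0 on the y axis only, and Gzma and Xcl1 lie lowest.

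The highest ratios between the libraries belonged to genes of other skin cells. Sprr2d, Sprr1b and Serpinb2, genes of the wounded epidermis, had log2 ratios of 5.82, 3.75 and 4.12, and S100a8 3.25. Sprr2d stood at 2.57 and 145 CPM in members and 2.47 and 387 CPM in fibroblast-rule cells. At the other end stood Gzma (-3.92), Xcl1 (-3.59), Ly6c2 (-3.24) and Rgs5 (-2.77), the last a pericyte gene at 1825 and 509 CPM in fibroblast-rule cells.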

How the data were processed

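Single-cell RNA was measured by 10x Genomics 3′ sequencing in 2 libraries, WT_LW and TLR9agonist_LW, 1 per group and each pooled from several mice. Per the file headers, Cell Ranger 4.0.0 produced the deposited UMI counts, which the authors left without normalization. The submitters' processing notes also name fastp, Seurat and the mm9 build, and the labels leave the chemistry open between v2 and v3. The deposited counts covered 27998 genes in 12800 and 13751 barcodes, with 99374045 and 132339022 UMIs.

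Members were selected on the UMI limits given in the report. The members and the gene lists were chosen with earlier results of these data known. Counts were summed over cells per library and class and scaled to CPM. Shares had exact Clopper-Pearson intervals, levels exact Poisson intervals and ratios exact conditional binomial intervals, all at 95% and for counting error only. A gene was counted from 50 UMIs, and past the fold meant at least 2-fold; with 1 library per group no test was run. For equal depth each cell was thinned to 1500 UMIs with a fixed seed, leaving out shallower cells (1 member of WT_LW, 74 and 33 other T cells, 57 and 101 fibroblast-rule cells). Doublets were predicted with Scrublet in scanpy 1.11.5 at 0.8% per 1000 cells and kept in the main values. Named genes were the genes of the rule and the lineages, the 3 most abundant per list, the 6 highest and 6 lowest between libraries, and the 10 highest and 10 lowest against other T cells. The summed level of the T cell marker list is not reported here. T cell receptor genes and, in the ranked choices, predicted genes were left out. Other genes named as the few members behind a list's count were chosen after their values were seen. The ratios and the intervals of ratios and shares were tested on simulated counts. These varied by counting error only, so uneven spread over cells was not covered. Alternatives covered cell filters, doublets, thresholds, depth, weighting and scaling. Python 3.11.15, numpy 2.4.6, scipy 1.17.1 and pandas 2.3.3 were used.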

Additional observations from a re-analysis of the deposited data

Results flagged for a closer look

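In 9 named genes the log2 ratio of TLR9agonist_LW to WT_LW had opposite signs in cycling T cells and in other T cells, with counting intervals off 0 in both as measured. The choice also required opposite signs relative to the median gene of each class, so this was fixed in advance. Some of these relative values were small, such as -0.016 for Mcpt4 in other T cells and -0.022 for Cd44 in cycling T cells. With 1 library per group the difference between the classes was not tested. Il18r1, a receptor subunit for IL-18, was at 0.38 in cycling and -0.63 in other T cells. Il2ra was at -0.43 and 1.46. Cd44, an adhesion receptor of activated T cells, was at -0.12 and 0.43. Tnfrsf4, which encodes OX40, was at 0.22 and -0.38.

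The cycle genes H2afz, at -0.16 and 0.39, and Tubb5, at 0.12 and -0.40, were also opposite. Ccl4 was at 1.60 and -1.45, with 93.2% of its UMIs in the cycling cells of TLR9agonist_LW held by 5 cells. The mast cell protease genes Mcpt4, at 0.35 and -0.33, and Tpsb2, at 0.70 and -1.63, had 90.2% and 88.4% of their TLR9agonist_LW UMIs in 5 cycling cells each.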

How the results depend on the processing

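There were 331 comparisons over 41 results and 17 alternatives, 2 of them added after the data were seen. In 82 comparisons of main results and 168 of single genes the value stayed within the main counting interval, or near the main count of genes. In 9 comparisons of main results and 67 of single genes it moved. A value could stay within a wide interval and still change sign. Among the single-gene values that left the interval, the signs of Ccl4, Gzmb and Il17a reversed. The Ccl4 ratio between libraries became -0.27 without predicted doublets and -0.37 without T cells carrying keratinocyte, myeloid or mast cell genes, and the Gzmb ratio became -0.078 without predicted doublets. Il17a in cycling against other T cells of WT_LW became -0.0082 with at least 5 Mki67 and Top2a UMIs and -0.013 with a Cd3 sum of at least 4. The dividing share gave a log2 ratio of -0.33 when cells with more than 1 UMI of Lyz2, Col1a1 or Col1a2 or with keratinocyte or myeloid genes were left out, which kept 16 of 343 and 2 of 54 cells; the other results were not run there. Without the Lyz2 and collagen limits 594 genes were 2-fold lower between libraries and 266 lower against other T cells. Without cells carrying keratinocyte, myeloid or mast cell genes 175 were higher between libraries and 783 lower against other T cells. From 20 UMIs, 494 were higher and 495 lower. In each of these settings the genes counted were chosen again, so their total changed and these counts give no shares. Thinned, the ratio of shares between libraries was 0.24 for Foxp3 and -2.22 for Cd8b1. Apart from construction (fewer cells, more genes counted), the cause was not tested. No paired analysis was possible because each group is 1 library with no replicate number. The counting intervals do not cover the spread between mice.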
